A study of Homo sapiens with 6 samples.

Results

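The BCL2 family decides whether the mitochondrial outer membrane stays closed or opens to start the intrinsic pathway of apoptosis, and 10 of its genes were followed here: the pro-survival genes BCL2L1 and MCL1, the effector genes BAX and BAK1, and the BH3-only genes PMAIP1, BBC3, BID, BAD, BIK and BCL2L11. They were taken by gene symbol from tables that list 17318 genes per library, and all 10 were found. RNA-seq libraries came from SNU216, an established human gastric cancer cell line. In 3 libraries the cells had been transfected for 48 h with siOXTR, an siRNA that targets OXTR, the gene of the oxytocin receptor, and in the other 3 for 48 h with siControl, a control siRNA. Both groups were grown in the same serum-supplemented medium and differ in the labels by the siRNA alone; the siRNA sequences and any untransfected cells are not part of these data. Libraries carry the numbers 1 to 3 in both groups, with nothing said of separate cultures. The p-values therefore reflect the spread among 3 libraries a group, and that spread may be technical.

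In this family, pro-survival proteins hold the others in check by binding them. BAX and BAK1 are the effectors, which assemble in the outer membrane and let cytochrome c out to the caspase-activating apoptosome. BH3-only proteins carry a single shared helix, the BH3 domain, and work upstream: some mainly occupy the pro-survival proteins, others can also activate the effectors directly. Much of this control acts on protein level, phosphorylation, cleavage and binding, none of which RNA abundance measures.

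Levels are given as FPKM, that is fragments per kilobase scaled to the mapped fragments of a library, which allow levels of different genes to be compared per length. FPKM summed to 446246 to 459595 in siOXTR libraries and 417829 to 434167 in siControl libraries, and the depth behind them is unknown. OXTR was at 4.92 ± 0.371 FPKM in siOXTR and 39.1 ± 0.257 FPKM in siControl (SD, n = 3 each), so the targeted RNA followed the labels. Of 8 epithelial markers 4 passed the threshold given below as lower in siOXTR (CDH1, EPCAM, CLDN4 and CLDN7) and 1 as higher (KRT19). KRT8, KRT18 and KRT7 did not pass. After the trimmed-mean scaling described below the same 4 were lower and 0 higher. KRT8 was at 3157 ± 65.3 FPKM in siOXTR and 2877 ± 206 FPKM in siControl, and its groups overlapped. CDH1 was at 20 ± 0.243 FPKM in siOXTR and 76.1 ± 3.28 FPKM in siControl. EPCAM was at 145 ± 7.78 and 291 ± 17.2 FPKM in siOXTR and siControl. The 6 measured fibroblast markers summed to 0.74 to 0.90 FPKM in siOXTR and 1.74 to 2.21 FPKM in siControl, and of 7 blood and endothelial markers CD68 alone reached a mean of 1 FPKM over the 6 libraries (PTPRC was at 1.23 ± 0.426 FPKM in siOXTR and 0.757 ± 0.199 FPKM in siControl). None of the measured markers was at 0 in all 6 libraries. In such bulk libraries fewer cells of a type and less RNA per cell cannot be told apart. The part of these marker differences in the results below was not tested.

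Of the 10 genes 5 rose in siOXTR and none fell: PMAIP1, BAX, BAK1, BAD and MCL1 passed the threshold and BCL2L1, BBC3, BID, BIK and BCL2L11 did not (limma on log2(FPKM + 1) over the 11550 genes that averaged 1 FPKM or more, Benjamini-Hochberg adjusted p under 0.05). All 10 reached that level, so none was lost to the filter. The share called higher among all tested genes was 42.2%, and the share called lower was 17.6%, so 5 of 10 higher is a share near the background. In 6 of the 10 genes every siOXTR library was above every siControl library, which held for 45.2% of tested genes (the opposite order held for 19.2%). The median log2 fold change was 0.21 for the 10 genes and 0.13 for all tested genes. FPKM are scaled to a library total, so large falls of some genes can lift the values of others. Whether this occurred here was not tested. The libraries were also rescaled by a trimmed mean of log ratios, which moved the median of all tested genes by -0.115 to 0.013. After it 19.1% of tested genes were called higher and 24.5% lower, while the same 5 genes were higher and none was lower. The 5 others then had log2 fold changes below 0, none of which passed the threshold, so no direction can be given for them.

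**Figure D1:**
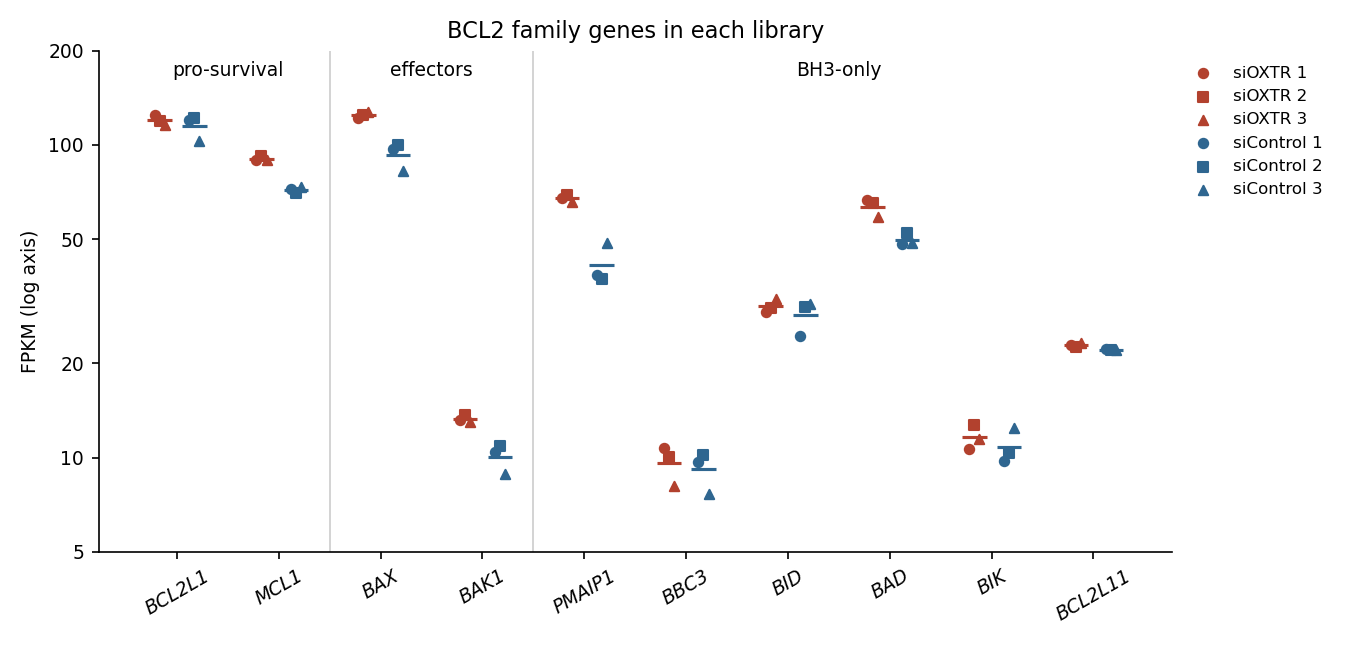
FPKM of each of the 10 genes (log axis) in the 3 siOXTR libraries (red, left of each pair) and the 3 siControl libraries (blue), with symbols for library numbers 1 to 3 and a bar at the mean. The siOXTR points lie wholly above the siControl points for MCL1, BAX, BAK1, PMAIP1, BAD and, by a small distance, BCL2L11.

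**Figure D2:**
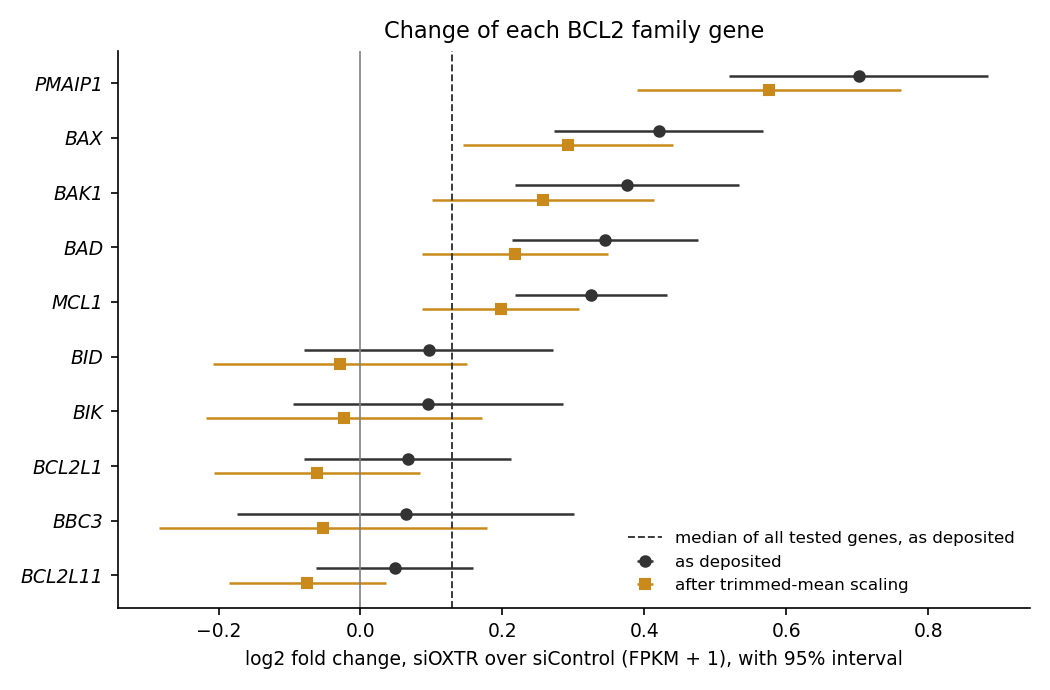
Log2 fold change, siOXTR over siControl, of each gene with its 95% interval from limma, as deposited (black circles) and after trimmed-mean scaling (yellow squares); the dashed line is the median of all tested genes as deposited, 0.13. The intervals of PMAIP1, BAX, BAK1, BAD and MCL1 lie above 0 on both scales and those of the 5 other genes include 0 on both.

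PMAIP1 had the largest change in the family. It encodes NOXA, a short BH3-only protein that binds MCL1 with high preference and promotes its degradation, and lies on chromosome 18 from 59899948 to 59904306 (GRCh38, plus strand). PMAIP1 was at 67.86, 69.27 and 65.62 FPKM in the siOXTR libraries, against 38.49, 37.25 and 48.59 FPKM in the siControl libraries. The siOXTR libraries were close together and all above the siControl libraries, of which number 3 stood higher than the other two. The means of 67.6 ± 1.84 and 41.4 ± 6.22 FPKM in siOXTR and siControl differ 1.63-fold (SD, n = 3 each; log2 fold change 0.70, SE 0.084, limma adjusted p = 2.62e-05). Only 0.433% of tested genes had a log2 fold change as high or higher. Without siControl library 3 the log2 fold change was 0.82, and after trimmed-mean scaling it was 0.58 (limma adjusted p = 0.000167).

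BAD was the other BH3-only gene that rose. Its protein binds BCL-XL and BCL2 and is held in the cytosol by 14-3-3 proteins when survival kinases phosphorylate it. BAD (chromosome 11, 64269830 to 64284704, minus strand) was at 66.47, 64.99 and 58.75 FPKM in siOXTR, against 48.18, 52.36 and 48.57 FPKM in siControl. The groups did not overlap, and the log2 fold change was 0.34 (SE 0.060, limma adjusted p = 0.000477). GPR137, a gene on the opposite strand, shares 104 of the 1327 exonic bases of BAD and was at 24.9 ± 1.91 FPKM in siOXTR and 19.3 ± 1.61 FPKM in siControl. GPR137 also passed the threshold as higher (log2 fold change 0.35, limma adjusted p = 0.00135), and did so after trimmed-mean scaling (limma adjusted p = 0.0199). Whether the counting used strand is not given in the sources used here. Over the 104 shared bases an exchange of reads between these genes thus cannot be told apart from their own signal. The size of any such exchange was not tested.

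The 4 remaining BH3-only genes did not pass the threshold. BBC3 encodes PUMA, a stress-induced BH3-only protein that binds every main pro-survival protein, and lies on chromosome 19 from 47220822 to 47232766. It was the lowest of the 10 genes, at 10.73, 10.04 and 8.13 FPKM in siOXTR and 9.71, 10.16 and 7.67 FPKM in siControl. The groups overlapped, and the 95% interval of the log2 fold change, -0.17 to 0.30, leaves room for a change in either direction. BID, which caspase-8 cleaves to pass a death receptor signal to mitochondria (chromosome 22, 17734138 to 17774770), was at 29.3, 30.16 and 32.2 FPKM in siOXTR and 24.55, 30.37 and 31.04 FPKM in siControl. Here siControl library 1 stood below the other 5 libraries, and the interval was -0.079 to 0.27. BIK, a BH3-only protein found mainly at the endoplasmic reticulum (chromosome 22, 43110748 to 43129712), was at 10.66, 12.67 and 11.49 FPKM in siOXTR and 9.74, 10.31 and 12.45 FPKM in siControl, with an interval of -0.095 to 0.28. BCL2L11, which encodes BIM, a strong activator of the effectors, lies on chromosome 2 from 111119378 to 111168447. It was at 22.83, 22.6 and 23.28 FPKM in siOXTR and 22.27, 22.05 and 22.02 FPKM in siControl. These groups did not overlap, yet the difference was small, with a log2 fold change of 0.048 (95% interval -0.062 to 0.16, limma adjusted p = 0.427). Its interval was the narrowest of the 5 genes that did not pass.

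Both effector genes rose, and by about the same proportion. BAX (chromosome 19, 48954815 to 48961798) encodes the effector that is mostly cytosolic in healthy cells and moves to mitochondria on activation. It was at 121.92, 124.71 and 127.13 FPKM in siOXTR, against 97.09, 99.63 and 82.71 FPKM in siControl. BAK1 (chromosome 6, 33572547 to 33580293) encodes the effector that resides in the outer membrane, where MCL1 and BCL-XL restrain it. It was at 13.22, 13.7 and 13.03 FPKM in siOXTR, against 10.42, 10.9 and 8.89 FPKM in siControl. For both genes every siOXTR library was above every siControl library, and siControl library 3 was the lowest of the 6. BAX rose 1.34-fold (log2 fold change 0.42, SE 0.068, limma adjusted p = 0.000259) and BAK1 rose 1.32-fold (log2 fold change 0.38, SE 0.073, limma adjusted p = 0.000932). Without siControl library 3 the log2 fold changes were 0.34 and 0.30, and both still passed. BAK1 has the processed pseudogenes BAK1P1 on chromosome 20 and BAK1P2 on chromosome 11, with which reads could be shared, so its single values are uncertain to that extent.

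Of the pro-survival genes MCL1 passed the threshold and BCL2L1 did not; the difference between them was not tested. MCL1, which encodes a short-lived protein that binds NOXA, BIM and BAK, lies on chromosome 1 from 150574551 to 150579738 (minus strand). It was at 89.23, 92.37 and 89.32 FPKM in siOXTR, against 72.08, 70.24 and 73.41 FPKM in siControl. Both groups were tight and well separated, and MCL1 rose 1.26-fold (log2 fold change 0.32, SE 0.049, limma adjusted p = 0.00016). In GENCODE the span of MCL1 overlaps that of ADAMTSL4-AS1 on the same strand, so reads could be shared between them. On the opposite strand BAK1 overlaps GGNBP1, BCL2L1 overlaps ABALON and AL117381.1, and BCL2L11 overlaps MIR4435-2HG. The spans of BBC3 and BID overlap microRNA genes. Since the use of strand is not given, reads could be shared in these cases too. BCL2L1, which encodes the long-lived inhibitor BCL-XL, lies on chromosome 20 from 31664452 to 31723989 (minus strand). It was at 124.71, 119.67 and 115.87 FPKM in siOXTR and 120.26, 121.74 and 102.76 FPKM in siControl. The groups overlapped, and the log2 fold change was 0.066 (95% interval -0.080 to 0.21, limma adjusted p = 0.409). Without siControl library 3, the lowest of the 6, it was -0.011. Values are per gene, so the BCL2L1 and MCL1 splice forms that lack the pro-survival activity are not separated from the long forms; GENCODE release 29 lists 9 coding transcripts for BCL2L1 and 3 for MCL1.

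Library 3 of siControl recurs in these values. Among the siControl libraries it was the lowest for 5 of the 10 genes (BCL2L1, BAX, BAK1, BBC3 and BCL2L11) and the highest for 4 (MCL1, PMAIP1, BID and BIK). Over all tested genes it was the lowest of the siControl libraries in 34.9% and the highest in 33.7%. The labels give no batch that would set it apart.

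**Figure D3:**
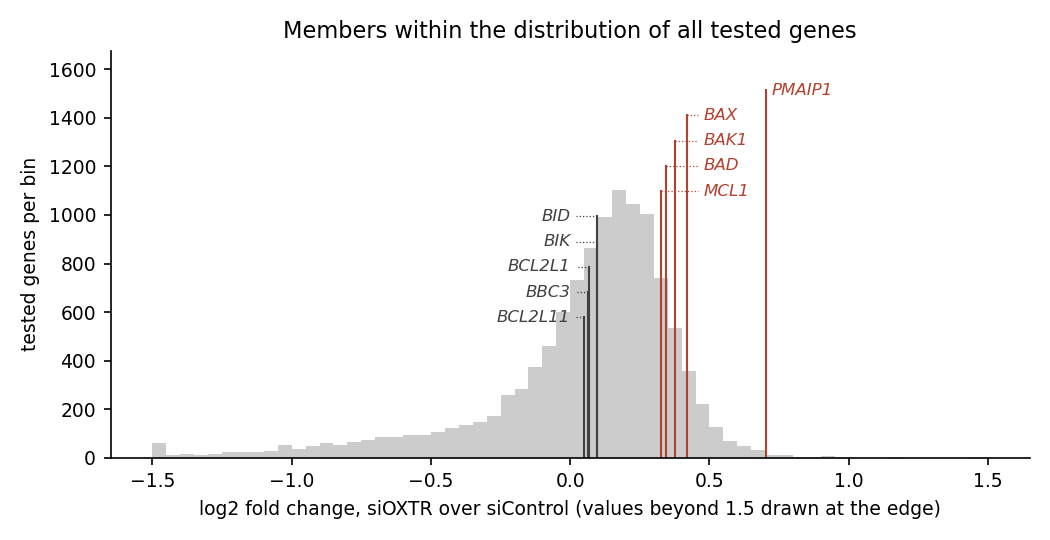
Number of tested genes (grey bars, bins of log2 fold change, siOXTR over siControl) with the position of each of the 10 genes marked by a vertical line; line heights only separate the labels. PMAIP1 lies in the right tail, BAX, BAK1, BAD and MCL1 on the right shoulder, and the 5 genes that did not pass the threshold (dark grey) lie left of the peak.

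Levels within the family ranged widely. In siOXTR BAX was the most abundant at 125 ± 2.61 FPKM, followed by BCL2L1 at 120 ± 4.43 FPKM, and the libraries of these genes overlapped. In siControl BCL2L1 led with 115 ± 10.6 FPKM, and BAX was below it at 93.1 ± 9.12 FPKM, with no overlap. MCL1 was next in both groups. PMAIP1 and BAD followed as neighbours that overlapped, with PMAIP1 above BAD in siOXTR and below it in siControl. BID and BCL2L11 came next in both groups without overlapping each other, and BAK1, BIK and BBC3 were the lowest. In siOXTR BAK1 was above BIK in every library, whereas in siControl the libraries of BIK, BAK1 and BBC3 overlapped. Among all tested genes, 94.9% were at or below the level of BCL2L1 in siOXTR and 95.03% in siControl, and 49.8% and 42.1% were at or below that of BAK1 in siOXTR and siControl. The members of the family that rose were thus found both near the top and near the middle of the range.

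Ratios within a library do not depend on how libraries are scaled to each other, so they compare members without that choice. BAX over BCL2L1 was 0.978, 1.04 and 1.10 in the siOXTR libraries, against 0.807, 0.818 and 0.805 in the siControl libraries. BAX RNA was thus below BCL2L1 RNA in each siControl library and above it in 2 of the siOXTR libraries. PMAIP1 over MCL1, the RNA ratio of NOXA to its main binding partner, was 0.761, 0.7499 and 0.735 in siOXTR, against 0.534, 0.530 and 0.662 in siControl. Although MCL1 rose as well, the siOXTR libraries were all above the siControl libraries. PMAIP1 over BCL2L1 averaged 0.563 ± 0.018 in siOXTR and 0.366 ± 0.0925 in siControl, and MCL1 over BCL2L1 0.753 ± 0.032 and 0.630 ± 0.074 in siOXTR and siControl, in both cases without overlap. For MCL1 over BCL2L1 the separation was minimal, with 0.7155 in siOXTR library 1 and 0.7144 in siControl library 3.

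Other pairs overlapped between the groups. PMAIP1 over BBC3 was 6.32, 6.90 and 8.07 in siOXTR and 3.96, 3.67 and 6.34 in siControl. BAX over BAK1 was 9.22, 9.10 and 9.76 in siOXTR and 9.32, 9.14 and 9.30 in siControl, a ratio of means of 1.01. BAX over MCL1 averaged 1.38 ± 0.038 in siOXTR and 1.30 ± 0.15 in siControl, and BAK1 over MCL1 0.147 ± 0.00136 and 0.140 ± 0.017 in siOXTR and siControl, and both overlapped. Summed by role, the effectors were at 138 ± 2.55 FPKM in siOXTR and 103 ± 10.2 FPKM in siControl. The BH3-only genes summed to 206 ± 5.46 and 162 ± 8.71 FPKM, and the pro-survival genes to 210 ± 4.602 and 187 ± 9.23 FPKM, in siOXTR and siControl. The effector sum over the pro-survival sum was 0.632, 0.653 and 0.683 in siOXTR, against 0.559, 0.576 and 0.520 in siControl. The BH3-only sum over the pro-survival sum was 0.972, 0.989 and 0.972 in siOXTR, against 0.795, 0.846 and 0.967 in siControl, where library 3 was close to the siOXTR libraries. These ratios are of RNA and were not tested, and the share of other gene pairs that separate in this way was not computed.

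**Figure D4:**
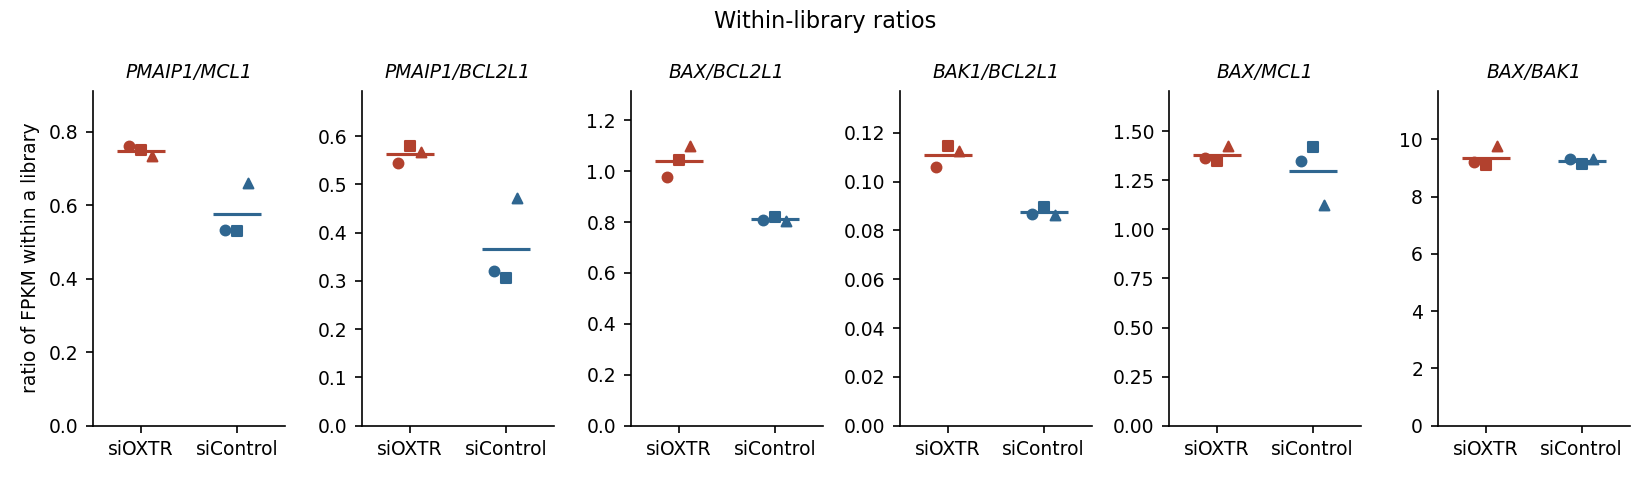
Ratio of FPKM of gene pairs within each library, siOXTR (red) left of siControl (blue), symbols as library numbers 1 to 3 and a bar at the mean; each axis starts at 0. PMAIP1 over MCL1, PMAIP1 over BCL2L1, BAX over BCL2L1 and BAK1 over BCL2L1 do not overlap between groups, whereas BAX over MCL1 and BAX over BAK1 do.

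The promoters of PMAIP1, BAD and BAX are shown because these genes rose and their windows hold letters of known transcription factor motifs. BAK1 rose too, but its window holds none of the motifs searched for. The windows are the 250 bases before the RefSeq gene start (GRCh38.p14), 5′ to 3′ on the gene's strand. The GENCODE starts of PMAIP1 and BAX given above lie upstream of the RefSeq starts, so the last 48 bases of the PMAIP1 window and the last 60 of the BAX window are inside the gene in GENCODE. PMAIP1 is chr18:59899746-59899995 (plus strand), BAD is chr11:64284705-64284954 (minus strand) and BAX is chr19:48954625-48954874 (plus strand). Capitals mark TGACGT or its reverse complement ACGTCA in PMAIP1 and BAD, the core of the cAMP response element bound by CREB and ATF proteins, and the E-box CACGTG, bound by MYC, USF and related factors, in BAX.
PMAIP1: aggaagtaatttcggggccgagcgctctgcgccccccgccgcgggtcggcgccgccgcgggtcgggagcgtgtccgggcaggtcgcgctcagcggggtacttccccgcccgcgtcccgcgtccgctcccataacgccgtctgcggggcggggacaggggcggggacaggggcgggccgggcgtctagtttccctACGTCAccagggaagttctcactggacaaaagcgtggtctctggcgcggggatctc
BAD: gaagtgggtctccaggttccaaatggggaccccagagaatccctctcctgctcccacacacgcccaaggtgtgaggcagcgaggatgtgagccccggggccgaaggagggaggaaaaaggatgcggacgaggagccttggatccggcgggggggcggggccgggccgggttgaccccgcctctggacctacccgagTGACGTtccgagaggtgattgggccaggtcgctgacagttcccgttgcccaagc
BAX: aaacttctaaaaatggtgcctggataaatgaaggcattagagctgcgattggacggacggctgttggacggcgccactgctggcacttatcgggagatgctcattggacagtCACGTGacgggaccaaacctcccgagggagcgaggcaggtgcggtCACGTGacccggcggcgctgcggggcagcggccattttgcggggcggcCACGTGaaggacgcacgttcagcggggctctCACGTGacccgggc

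Windows were listed for 8 of the 10 genes, and MCL1 and BIK had none. On both strands, TGACGT was found in the windows of PMAIP1 and BAD and of no other member, at -56 in PMAIP1 and at -54 in BAD as printed, counted from the RefSeq gene start to the first base of the match. It occurred in 9.47% of the 13818 windows of tested genes, some of which have several. CACGTG was found 4 times in BAX, at -138, -93, -45 and -14 from the RefSeq start, of which the last 2 are inside the gene in GENCODE, and also in a window of BBC3 and of BID, neither of which passed the threshold. It occurred in 8.29% of windows of tested genes. Counts of 4 or more were found in 5 of all 35116 windows, the BAX window among them. This cut was set at the count in BAX, so it does not measure how unusual BAX is. The full element TGACGTCA, which contains TGACGT, and the composite TGATGNAAN were in no member's window and in 2.51% and 1.53% of windows of tested genes. These matches describe the letters in the windows and say nothing on which factor was bound.

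Several proteins of the family end in a hydrophobic stretch that anchors them in the outer membrane. Hydrophobic windows were 19 residues averaging 1.7 or more on the Kyte-Doolittle scale, in the main coding transcripts of GENCODE release 29. For MCL1, BAK1 and BIK the first such window ended in the last 45 residues, which defined the C-terminal class. A shorter hydrophobic stretch near the start of a protein did not exclude its gene from this class. The prediction misses known anchors: BCL2L1, BAX and BCL2L11, whose proteins also end in an anchoring helix, had no window above 1.68, 1.41 and 0.75. Of the 288 tested genes of this C-terminal class 121 were higher and 76 lower as deposited, with a median log2 fold change of 0.11. Among all tested genes 42.2% were higher and 17.6% lower. Genes whose first 19-residue window ended earlier formed the secreted or otherwise membrane-bound class. So did genes without one where 9 consecutive residues among the first 35 averaged 2.2 or more. Of 3191 genes predicted as secreted or otherwise membrane-bound 648 were higher and 1459 lower, with a median of -0.12. Of 7782 genes with neither feature 3954 were higher and 470 lower, with a median of 0.17. A prediction was available for 11261 of the 11550 tested genes. MCL1, at 0.32, and BAK1, at 0.38, were above the median of their class, and BIK, at 0.095, was near it.

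Related lists place the 10 genes among the other parts of the pathway. Over these lists together 26 of 62 tested genes were higher and 6 lower, beside 42.2% and 17.6% of all tested genes. The share called higher is thus near the background. After trimmed-mean scaling 13 were higher and 9 lower, beside 19.1% and 24.5% of all tested genes. The counts of each list below are to be read beside these shares. The remaining BCL2 family had 3 of 6 tested genes higher and none lower, with a median log2 fold change of 0.22, but after trimmed-mean scaling 1 was higher. That gene was BCL2L12, at 55.8 ± 2.10 FPKM in siOXTR and 44.7 ± 5.10 FPKM in siControl. BCL2L2, which encodes the pro-survival protein BCL-W, was at 30.8 ± 0.465 FPKM in siOXTR and 26.3 ± 1.49 FPKM in siControl, and reads of the BCL2L2-PABPN1 readthrough may be shared with it. BCL2L13 was at 31.0 ± 0.556 FPKM in siOXTR and 26.6 ± 1.42 FPKM in siControl. BCL2 itself, the founding pro-survival gene, was at 0.037 ± 0.031 FPKM in siOXTR and 0.043 ± 0.051 FPKM in siControl, and BCL2L10, BCL2L14, BCL2L15 and HRK were also below the mean of 1 FPKM needed for a test. BCL2A1, BOK and BMF were tested and did not pass.

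Downstream of the family, 2 of 9 apoptosome and caspase genes rose and none fell (median 0.031), and after trimmed-mean scaling 1 was higher and 1 was lower. CASP9, the initiator caspase of the apoptosome, had the largest change at 10.6 ± 0.344 FPKM in siOXTR and 7.23 ± 0.139 FPKM in siControl (log2 fold change 0.49, SE 0.059, limma adjusted p = 2.66e-05). CASP9 remained higher after scaling. CYCS, which encodes cytochrome c and has many pseudogenes, rose as deposited, by 0.20 on the log2 scale, and did not pass after scaling. Leaving out siOXTR library 2 or siControl library 2 reduced the list's count of higher genes to 1, and leaving out siControl library 3 raised it to 4. APAF1, the scaffold of the apoptosome, was at 6.72 ± 0.103 FPKM in siOXTR and 6.56 ± 0.285 FPKM in siControl and did not pass.

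Among inhibitors of apoptosis and their antagonists 3 of 8 rose and 1 fell (median 0.14), and after scaling 1 was higher and 1 lower. DIABLO encodes SMAC, a mitochondrial protein that relieves caspases from XIAP once released. It was at 36.4 ± 0.954 FPKM in siOXTR and 28.8 ± 1.87 FPKM in siControl (log2 fold change 0.33), higher on both scales. BIRC3, which encodes cIAP2, an NF-kB-induced ubiquitin ligase, fell to 82.5 ± 2.56 FPKM in siOXTR, against 97.9 ± 6.95 FPKM in siControl, also on both scales. NAIP and BIRC5 (survivin) rose by 0.24 and 0.16 on the log2 scale as deposited alone. XIAP, the direct caspase inhibitor, was at 6.23 ± 0.238 FPKM in siOXTR and 6.24 ± 0.478 FPKM in siControl.

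Genes of the outer membrane and of proteins that bind the family moved in both directions, with 7 of 16 higher and 3 lower (median 0.14), or 4 higher and 3 lower after scaling. BNIP3, a hypoxia-induced mitophagy receptor with a BH3-like stretch, fell to 65.3 ± 2.93 FPKM in siOXTR, against 108 ± 9.57 FPKM in siControl (log2 fold change -0.71). TMBIM6, the membrane protein BAX inhibitor 1 of the endoplasmic reticulum, fell to 111 ± 1.66 FPKM in siOXTR, against 175 ± 2.74 FPKM in siControl (log2 fold change -0.65). BAG1, a BCL2-binding co-chaperone, rose to 47.5 ± 0.617 FPKM in siOXTR, against 30.8 ± 0.914 FPKM in siControl (log2 fold change 0.61). BNIP1, an endoplasmic reticulum SNARE protein, rose by 0.54 on the log2 scale. These 4 genes passed the threshold on both scales. BNIP3 has processed copies in the genome, and its single values are uncertain.

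Genes for turnover of MCL1 and BH3-only proteins had 3 of 7 tested higher and none lower (median 0.12), and 2 were higher after scaling. RNF7, a RING subunit of cullin ligases that act on NOXA, was at 27.6 ± 1.16 FPKM in siOXTR and 20.5 ± 0.896 FPKM in siControl. BTRC, an F-box protein gene, was at 6.36 ± 0.155 FPKM in siOXTR and 4.74 ± 0.236 FPKM in siControl, and both passed on both scales. HUWE1, FBXW7, USP9X and MARCHF5, which add or remove ubiquitin on family members or their regulators, did not pass. Of the 7 genes of 14-3-3 proteins, which retain phosphorylated BAD, 4 rose and none fell (median 0.22). YWHAG alone, at 132 ± 1.898 FPKM in siOXTR and 102 ± 4.47 FPKM in siControl, was still higher after scaling.

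Among transcription factors that act on BH3-only genes 4 of 9 tested rose and 2 fell (median -0.052), and after scaling 3 were higher and 4 lower. DDIT3, which encodes the stress factor CHOP, rose to 47.8 ± 0.910 FPKM in siOXTR, against 21.0 ± 0.435 FPKM in siControl. ATF4, a translation-controlled activator of the integrated stress response that can induce PMAIP1, rose to 219 ± 10.9 FPKM in siOXTR, against 120 ± 0.568 FPKM in siControl. FOXO4, a forkhead factor, rose to 3.28 ± 0.0902 FPKM in siOXTR, against 2.47 ± 0.312 FPKM in siControl (log2 fold change 0.31, limma adjusted p = 0.0062), and passed narrowly after scaling (limma adjusted p = 0.0487). ATF3, a stress-induced factor, rose by 0.19 on the log2 scale as deposited alone. FOXO3, which can induce BCL2L11 and BBC3, was at 19.1 ± 0.0839 FPKM in siOXTR and 21.0 ± 1.24 FPKM in siControl, and passed as lower after scaling alone. JUN and MYC, which encode growth-related factors, were lower with log2 fold changes of -0.20 and -0.16. MYC passed narrowly as deposited (limma adjusted p = 0.0448) and its groups overlapped, whereas those of JUN did not. Both were also lower after scaling. The count of lower genes in this list was 1 without any one of the 3 siOXTR libraries or without siControl library 3. That count was also 1 with no filter on low values, and with no mean trend and no robust prior.

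**Figure D5:**
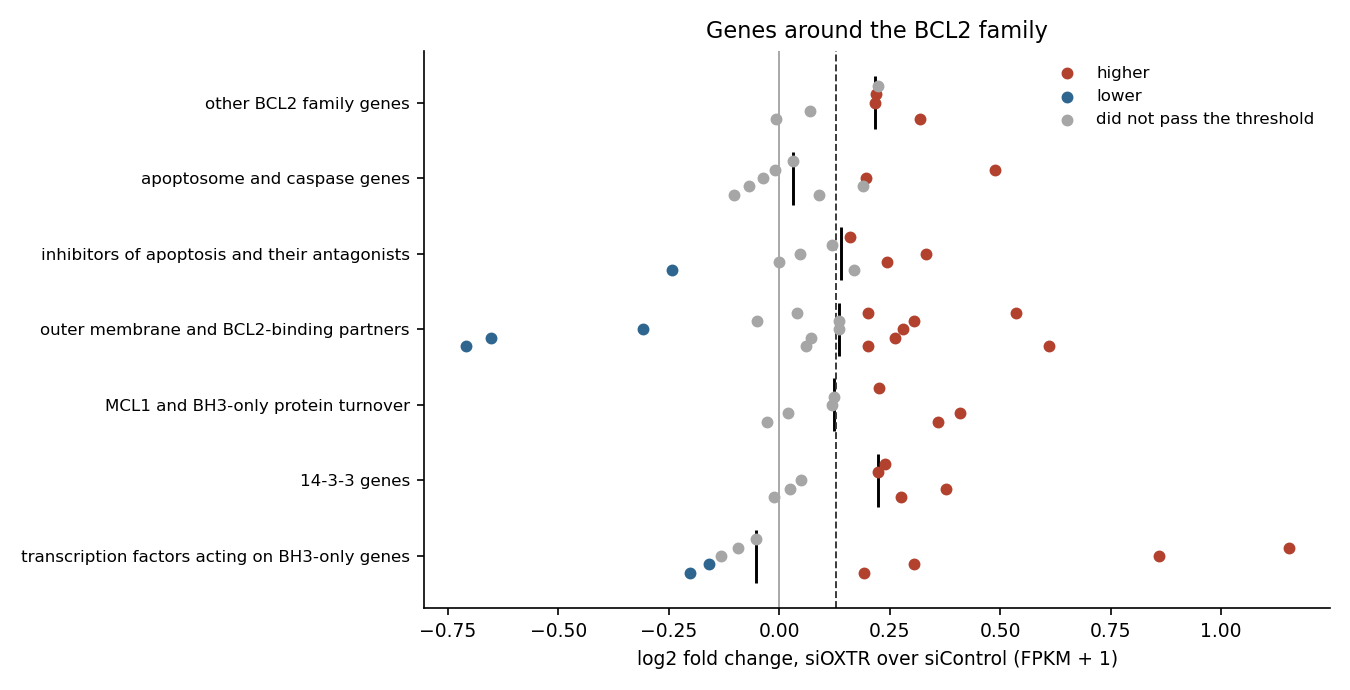
Log2 fold change, siOXTR over siControl, of each tested gene of 7 related lists, coloured by limma call as deposited (red higher, blue lower, grey not past the threshold), with a black bar at each list's median, a solid line at 0 and a dashed line at 0.13, the median of all tested genes. DDIT3 and ATF4 are the points farthest right and BNIP3 and TMBIM6 those farthest left.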

How the data were processed

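RNA of 3 siOXTR and 3 siControl libraries of SNU216 cells was deposited by the authors as 1 FPKM value per gene and library, per the file headers. Libraries followed a BGISEQ-500 protocol, per the labels, with GRCh38.p13 as genome build per the submitters' processing notes. Which aligner, quantifier, annotation and strand setting were used is not given in the sources used here, and depth is unknown. Genes averaging 1 FPKM or more across the 6 libraries entered limma 3.58.1 (R 4.3.3) as log2(FPKM + 1) (group as the only term, mean trend, robust prior, two-sided, Benjamini-Hochberg over 11550 genes, threshold 0.05). A fold change on this scale understates the change of low genes. The fit was tested on simulated data with equal numbers of raised and lowered genes. That simulation does not bear on the choice of scaling. Alternatives were a pseudocount of 0.1, no filter, a mean of at least 5 FPKM, trimmed-mean scaling (30% of ratios and 5% of levels trimmed on each side), median-ratio scaling, no trend or robust prior, the replicate number as a term, and each library left out. All 10 members are named; of each related list called genes may be named, at most the 4 with the largest change in full; APAF1, XIAP, FOXO3 and others named outside this rule were chosen after their values were seen. Some genes and 1 list are not reported here. The members, lists, motifs and segment classes were chosen with earlier results of these data known. Positions and segments come from GENCODE release 29 (GRCh38), promoters from RefSeq (GRCh38.p14).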

Additional observations from a re-analysis of the deposited data

How the results depend on the processing

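PMAIP1, BAX, BAK1, BAD and MCL1 were higher under all 13 alternatives, and no member was called lower under any of them. The other members did not pass the threshold under any alternative, and their sign varied. With trimmed-mean and median-ratio scaling the log2 fold changes were -0.061 and -0.059 for BCL2L1, -0.053 and -0.051 for BBC3, -0.029 and -0.027 for BID, -0.023 and -0.021 for BIK, and -0.075 and -0.073 for BCL2L11. They were also -0.011 for BCL2L1 and -0.048 for BBC3 without siControl library 3, -0.011 for BBC3 without siOXTR library 1, and -0.0079 for BID without siControl library 1. Scaling changed the larger counts by its own construction, since it lowers siOXTR values relative to siControl: with trimmed-mean and median-ratio scaling 2211 and 2242 of all tested genes were higher, against 4869 as deposited, and 13 and 13 genes of the related lists were higher and 9 and 9 lower, against 26 and 6 as deposited. With each library left out in turn, 5 to 5 members were higher and 0 to 0 lower, related list genes were 23 to 30 higher and 5 to 6 lower, and all tested genes 3976 to 4671 higher and 1819 to 2020 lower. Over the same fits the log2 fold changes ranged from -0.011 to 0.11 for BCL2L1, from -0.048 to 0.17 for BBC3 and from -0.0079 to 0.16 for BID. Same-numbered libraries had deviations from their group means that correlated at 0.107, 0.0042 and 0.16, so the numbers were not taken as pairs. The replicate block left 5 members higher and 0 lower, with 5100 genes higher and 2105 lower among all tested, and not every library correlated best with its own number. Depth is unknown, so no counting error can be attached to a value.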
